A study of Homo sapiens with 6 samples.

Results

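The long arm of chromosome 3 in Calu-3 cells is described here against the short arm of the same chromosome, through the intervals called by chromatin immunoprecipitation and sequencing (ChIP-seq). The members are all called intervals that start at or above position 93500000 (hg19), and the comparison set is all intervals that end below 90500000. The long arm held 4028 of the 73341 intervals of the 4 lists and the short arm held 2148, with 0 intervals of chromosome 3 outside both. Calu-3 is an established line of human lung adenocarcinoma cells with airway epithelial features, grown in low-glucose medium with 10% serum and with no treatment named in the labels. The lists come from 2 libraries precipitated with an antibody to EHF, 1 with an antibody to H3K4me1 and 1 with an antibody to H3K27ac. All 4 libraries are of this one line, so that the comparison is between positions and not between treatments. The arms were chosen by position after the lists had shown a difference in interval counts, EHF peaks per H3K27ac region and score, so these measures are given as a description with no test.

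EHF (Ets homologous factor) is a transcription factor of the ETS family that is largely restricted to epithelia, where it binds a short purine-rich core motif in enhancers and promoters. H3K27ac is deposited by acetyltransferases at active enhancers and promoters. H3K4me1 is placed by methyltransferases at enhancers, both active and poised, and often flanks the bound centre. Cancer lines often carry gained or lost chromosome segments, and a gained segment gives more DNA to every precipitation. The deposited lists carry no input tags per interval, so copies of the DNA and binding or mark level per copy cannot be told apart here.

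Library depth was 8418631 to 21426939 tags, of which 0.155% and 0.740% lay in the peaks of EHF replicates 1 and 2, 5.80% in called H3K4me1 regions and 28.9% in those of H3K27ac. Whether separate cultures were used for the EHF replicates is not given in the labels, and each mark has 1 library. A score is the authors' tag count of an interval, scaled to 10000000 tags per library, and is compared only between positions of one list. Intervals in brackets are exact 95% limits that cover counting error only.

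The long arm carried more called intervals per Mb than the short arm in every list, and the excess was far larger for EHF than for the histone marks. EHF replicate 1 had 199 peaks on the long arm and 23 on the short arm, or 1.91 per Mb (1.65 to 2.19) against 0.254 per Mb (0.161 to 0.381), a 7.52-fold ratio (4.87 to 12.1). EHF replicate 2 had 514 and 112 peaks, or 4.93 per Mb (4.52 to 5.38) against 1.24 per Mb (1.02 to 1.49), a 3.99-fold ratio (3.24 to 4.94). The 2 EHF libraries thus had the same direction with different sizes. For H3K4me1, 1883 regions on the long arm and 997 on the short arm gave 18.1 and 11.0 regions per Mb, a 1.64-fold ratio (1.52 to 1.77). For H3K27ac, 1432 and 1016 regions gave 13.7 and 11.2 per Mb, a 1.22-fold ratio (1.13 to 1.33). EHF sites found in both replicates numbered 79 on the long arm and 14 on the short arm, a 4.90-fold ratio per Mb (2.76 to 9.37). The long arm held 12.9% of all EHF replicate 1 peaks and 9.85% of all replicate 2 peaks, but 5.89% of the H3K4me1 and 4.13% of the H3K27ac regions.

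Within the long arm the intervals were not evenly spread. EHF peaks were as sparse next to the centromere as on the short arm and became dense further out, as the plot of intervals along the chromosome shows. In the 7 bins of 5 Mb nearest the centromere, counted from multiples of 5 Mb so that the first is partly outside the arm, EHF replicate 1 had 0 to 2 peaks per bin. In the next 14 bins, a group set by H3K4me1 score as given below, it had 7 to 24, with a median of 14.5. The 18 bins of the short arm had 0 to 4. The bin across the centromere counts long arm members only, which leaves 1 EHF replicate 2 peak, 3 H3K4me1 regions and 2 H3K27ac regions of the short arm in no bin. The same 3 groups of bins had 2 to 15, 13 to 54 and 0 to 16 peaks of EHF replicate 2. For replicate 1, no bin of the outer group was as low as any bin of the inner group or the short arm. For replicate 2 the groups overlapped in 2 bins of the outer group, which had 13 and 14 peaks. The numbers of H3K27ac regions per bin overlapped widely, at 8 to 92 in the inner bins, 32 to 115 in the outer bins and 21 to 103 on the short arm.

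**Figure D1:**
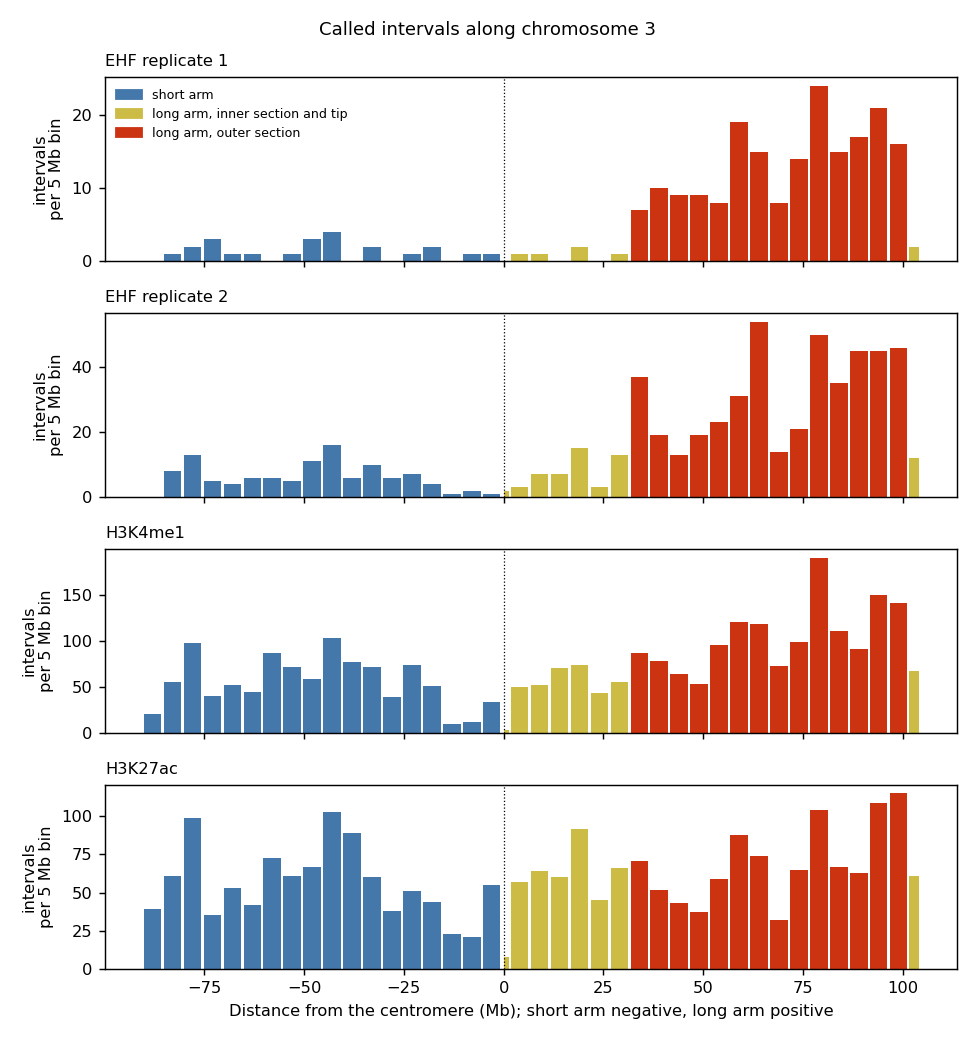
Called intervals per 5 Mb bin of chromosome 3 (y axes, number of intervals) against distance from the centromeric end of each arm in Mb (x axis, short arm negative), 1 panel per list, with bins cut by the end of an arm drawn narrower. EHF replicate 1 has 7 to 24 peaks in each of the 14 outer bins of the long arm and at most 4 in any bin of the short arm, while H3K27ac counts overlap between the arms.

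The mark scores were high over the same 14 bins, which were themselves set by the H3K4me1 score. In 5 Mb bins, the H3K4me1 score per kb of called region was 20.3 to 22.5 over the 18 bins of the short arm and 20.9 to 23.2 over the 6 inner bins with at least 20 H3K27ac regions. It was 28.6 to 36.1 in the 14 outer bins. The H3K27ac score per kb was 25.9 to 39.2 on the short arm, 30.9 to 40.5 in the inner bins and 51.3 to 89.1 in the outer bins. Neither mark had an outer bin that overlapped the short arm or the inner bins, but for H3K4me1 the threshold fixed the lower end of the outer bins. The stretch was delimited after these values were seen. It is the longest run of bins with an H3K4me1 score per kb of at least 1.3 times that of the whole short arm (21.5, so a threshold of 27.99). The run extended from 125000001 to 195000000 and measured 70.0 Mb. The same threshold for H3K27ac (44.0 per kb) gave the same 14 bins. The part between the centromere and this run, 31.5 Mb long, is called the inner section below, the run itself the outer section, and the last 2.69 Mb the tip. Since the outer section was cut out by its scores, comparisons that involve it carry no test.

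**Figure D2:**
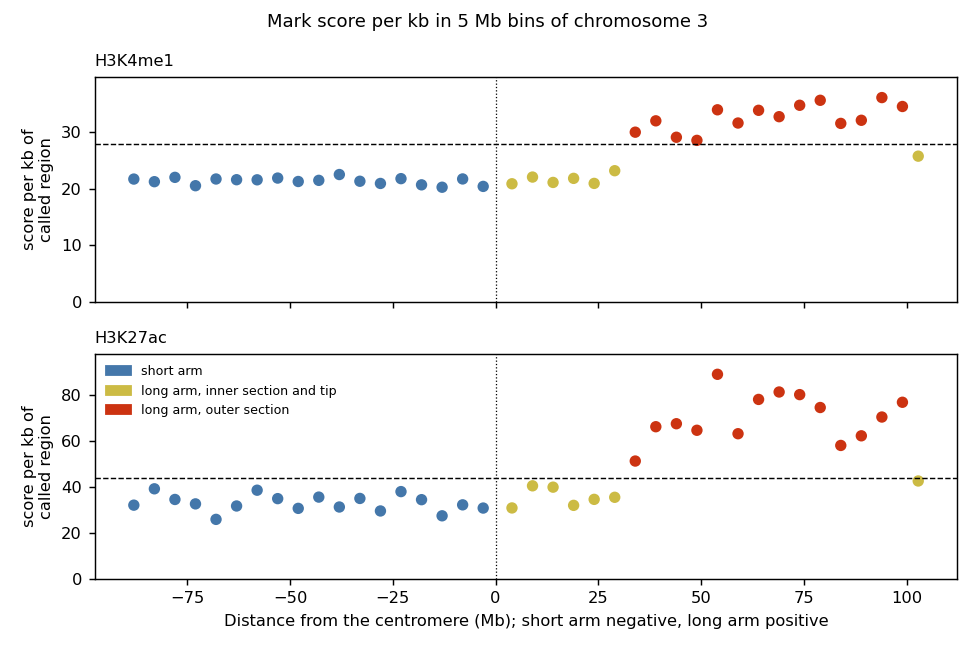
Score per kb of called region (y axes, scaled tags per kb) in 5 Mb bins with at least 20 H3K27ac regions, against distance from the centromeric end of each arm in Mb (x axis, short arm negative), with a dashed line at 1.3 times the value of the whole short arm. The 14 outer bins lie at 28.6 to 36.1 for H3K4me1 and 51.3 to 89.1 for H3K27ac, above all other bins of the chromosome.

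In bins of 1 Mb the inner edge was gradual. From 121000001 to 124000000 the H3K4me1 score per kb was 20.7 to 21.7 and the H3K27ac score per kb was 26.0 to 36.3. The Mb from 124000001 had 25.7 and 46.8, that from 125000001 had 22.7 and 48.4, and that from 126000001 had 28.3 and 35.4. The Mb from 127000001 had 34.0 and 54.8, and it was the first of these with EHF replicate 1 peaks beyond 122000000 (3 peaks, beside 10 of replicate 2). The outer edge fell near 195000000. The last Mb before it had an H3K4me1 score per kb of 32.0 and an H3K27ac score per kb of 68.6, and the first Mb after it had 27.99 and 39.1. The step thus lay inside the long arm and not at the centromere. Of the members nearest the centromere, the last H3K4me1 region of the short arm had a score per kb of 25.9 and the first of the long arm 23.95. The corresponding H3K27ac regions had 35.3 and 18.2. The last and first peaks of EHF replicate 1 had scores of 8 and 12, and those of replicate 2 had scores of 8 and 15.

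Nearly all of the excess of EHF peaks lay in the outer section, which makes up 67.2% of the long arm's length. It held 192 of the 199 EHF replicate 1 peaks (96.5%), 452 of the 514 replicate 2 peaks (87.9%) and 75 of the 79 sites found in both. Of the marks, it held 78.0% of the regions of H3K4me1 and 68.4% of those of H3K27ac. Per Mb, EHF replicate 1 peaks were 10.8 times as dense in the outer section as on the short arm, and replicate 2 peaks 5.22 times. H3K4me1 regions were 1.90 times and H3K27ac regions 1.25 times as dense. The inner section had 5 peaks of EHF replicate 1, 0.159 per Mb (0.0515 to 0.370), which overlaps the short arm's 0.254 (0.161 to 0.381). It had 50 peaks of replicate 2, 1.59 per Mb (1.18 to 2.09), which overlaps the short arm's 1.24 (1.02 to 1.49). H3K4me1 regions had a density of 11.0 per Mb in the inner section and on the short arm alike.

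Relative to H3K27ac, the long arm carried 13.9 peaks of EHF replicate 1 per 100 regions (12.03 to 15.97) and the short arm 2.26 (1.43 to 3.40), a 6.14-fold ratio. For EHF replicate 2 the values were 35.9 (32.9 to 39.1) and 11.0 (9.08 to 13.3), a 3.26-fold ratio. Sites found in both replicates numbered 5.52 (4.37 to 6.88) and 1.38 (0.753 to 2.31) per 100 regions. In the outer section alone the values were 19.6 for replicate 1, 46.2 for replicate 2 and 7.66 for sites in both. In the inner section they were 1.28, 12.8 and 0.765. The ratio of long to short arm for replicate 1 was 0.563 when only the inner section was used, and for replicate 2 it was 1.16. By Mb covered with H3K27ac instead of regions, the ratios of the whole arms were 5.90 and 3.13.

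Taken whole, the other chromosomes had fewer EHF peaks per H3K27ac region than the long arm, but a stretch of chromosome 20 had as many or more. Over the other 22 chromosomes with at least 100 H3K27ac regions, EHF replicate 1 had 0.716 to 10.6 peaks per 100 regions, with a median of 3.57, and the highest was chromosome 20. EHF replicate 2 had 4.71 to 34.4, with a median of 13.3, again with chromosome 20 highest. Its counting interval on the long arm (32.9 to 39.1) includes the value of chromosome 20. The short arm stood above 5 of the 22 for each replicate. An arm is here set against whole chromosomes, which average over their own stretches. The 7 bins of chromosome 20 from 30000001 to 65000000 had 84 peaks of replicate 1, 260 of replicate 2 and 533 H3K27ac regions. That is 15.8 (12.6 to 19.5) and 48.8 (43.03 to 55.1) per 100 regions, both higher values than those of the whole long arm of chromosome 3. Against its outer section, the stretch of chromosome 20 had a lower value for replicate 1 and a higher one for replicate 2, with overlapping intervals for both.

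**Figure D3:**
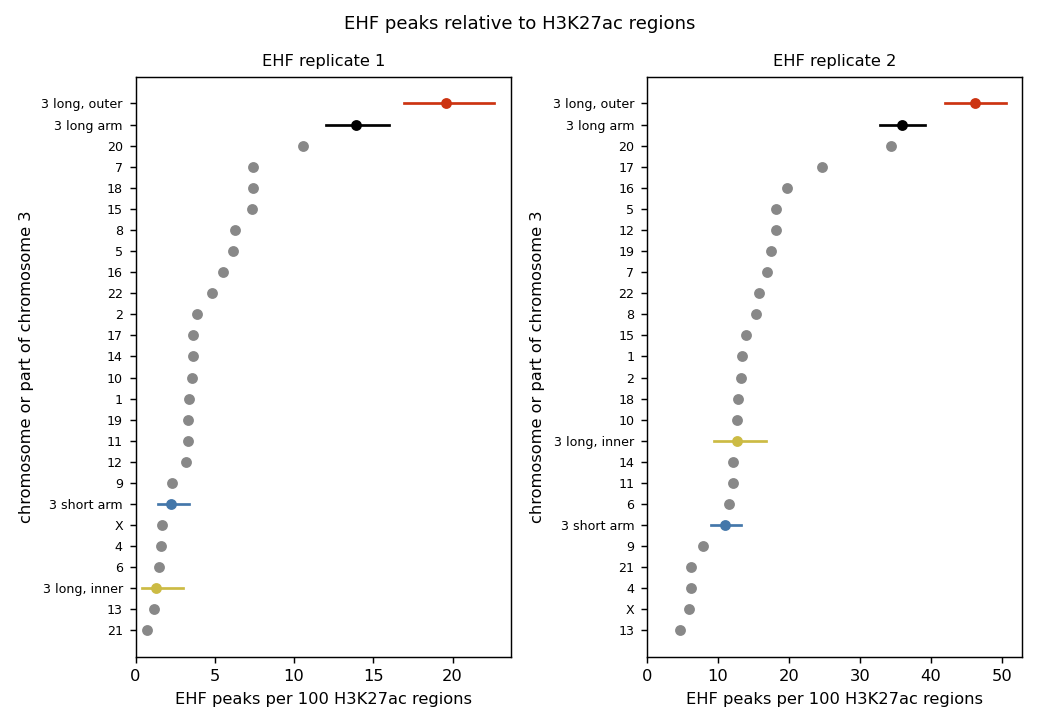
EHF peaks per 100 H3K27ac regions (x axes) for each chromosome (grey points) and for parts of chromosome 3 (coloured or black points with exact 95% Poisson intervals), ordered by value, with 1 panel per EHF replicate. The long arm, at 13.9 and 35.9, lies above the other chromosomes taken whole, although not above the stretch of chromosome 20 at 15.8 and 48.8 (not drawn), and the short arm is at 2.26 and 11.0.

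Along the chromosome, the bin with the most EHF replicate 2 peaks per 100 H3K27ac regions was that from 155000001 to 160000000, with 73.0. It held 54 peaks of replicate 2, 15 of replicate 1 and 74 H3K27ac regions. The next were the bin from 180000001 (71.4, with 45 and 17 EHF peaks) and the bin from 175000001 (52.2, with 35 and 15). The lowest 3 were on the short arm. The bin from position 1 to 5000000 had 0 EHF peaks in either replicate beside 39 H3K27ac regions, which allows up to 3 peaks by the limit of 3 counts. The bin from 85000001 had 1 peak of each replicate and 55 H3K27ac regions, and the bin from 75000001 had 1 peak of replicate 2 and 23 H3K27ac regions. The highest H3K27ac scores per kb were in the bins from 145000001 (89.1, over 193 kb of regions), 160000001 (81.4, over 65.3 kb) and 165000001 (80.3, over 133 kb). The lowest were in the bins from 20000001 (25.9), 75000001 (27.4) and 60000001 (29.6). The 3 bins richest in EHF and the 3 with the highest H3K27ac score were thus different ones. Over the 14 outer bins the Pearson correlation of EHF replicate 2 peaks per 100 H3K27ac regions with the H3K27ac score per kb was -0.22 (Spearman -0.31), although over all 39 bins of the chromosome it was 0.82 (Spearman 0.76). The mark scores had a Pearson correlation of 0.95 over the 39 bins (Spearman 0.82), of 0.61 over the 14 outer bins (0.64) and of 0.23 over the 18 short arm bins (0.21). These bins share their libraries and neighbours, and the correlations are descriptions.

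The rise in mark score was spread over most regions of the outer section and did not rest on a few. The median H3K4me1 region had a score per kb of 21.6 on the short arm, 21.9 in the inner section and 31.0 in the outer section. On the other chromosomes it was 23.01. The 5th to 95th percentiles were 17.96 to 27.5 on the short arm and 19.96 to 47.5 in the outer section. Of the outer H3K4me1 regions, 67.7% (65.2% to 70.1%) exceeded the short arm's 95th percentile, against 4.90% in the inner section and 19.1% on other chromosomes. The median H3K27ac region had a score per kb of 24.5 on the short arm, 24.0 in the inner section, 45.2 in the outer section and 27.9 on other chromosomes. Of the outer H3K27ac regions, 42.5% (39.4% to 45.7%) exceeded the short arm's 95th percentile of 49.7, against 5.10% in the inner section and 14.0% on other chromosomes. As sums of score over covered length, H3K4me1 had 33.3 per kb over 1.12 Mb of outer regions and 21.5 per kb over 0.727 Mb of short arm regions, a 1.55-fold ratio. H3K27ac had 71.9 per kb over 1.91 Mb and 33.9 per kb over 1.91 Mb, a 2.12-fold ratio. The other chromosomes had 24.3 per kb for H3K4me1 and 44.2 per kb for H3K27ac, both above the short arm. Against them the ratios of the outer section were 1.37-fold and 1.63-fold. The tip was intermediate, with medians of 24.0 for H3K4me1 and 30.5 for H3K27ac.

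**Figure D4:**
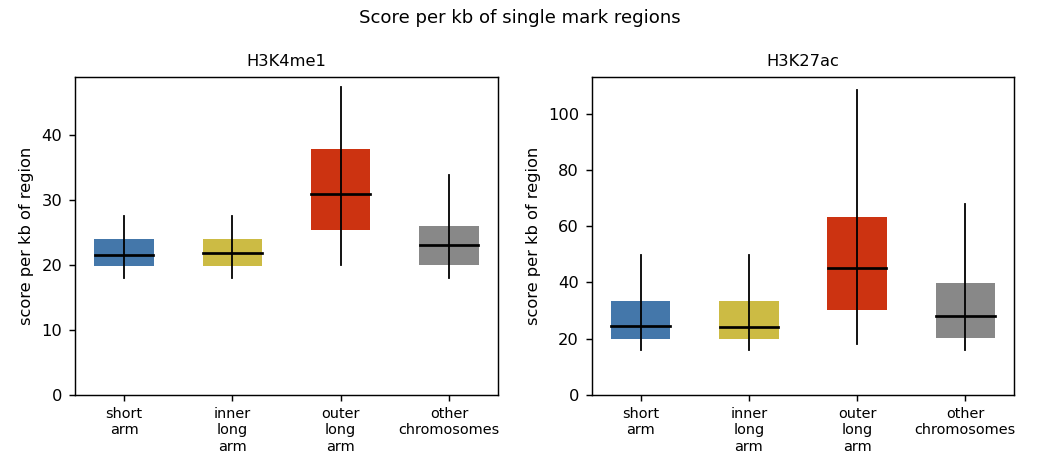
Score per kb of single H3K4me1 regions (left) and H3K27ac regions (right) on the short arm, in the inner and outer sections of the long arm and on the other chromosomes (y axes, scaled tags per kb), with boxes for the quartiles, bars for medians and thin lines from the 5th to the 95th percentile. The medians of the outer section are 31.0 and 45.2, against 21.6 and 24.5 on the short arm, and the inner section lies with the short arm.

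The widths of the regions were similar in the 3 sections. The median H3K27ac width was 1449 bp on the short arm, 1374 bp in the inner section and 1348 bp in the outer section. The median H3K4me1 width was 501 bp in all 3, the size of a single window. The H3K27ac score was higher in the outer section than on the short arm in each of the 5 width classes. In the narrowest class, cut like the others at equal shares of the whole list (501 to 626 bp), the median score per kb was 17.96 on the short arm and 25.9 in the outer section, and in the widest class (2625 bp and more) it was 37.8 and 79.5. Regions without any EHF peak had the same direction: their H3K27ac score per kb was 32.7 on the short arm, 33.1 in the inner section and 60.5 in the outer section. Regions with an EHF peak had 42.9, 47.7 and 92.2. Of the outer H3K27ac regions, 191 of 979 held an EHF peak of either replicate (19.5%, 17.1% to 22.1%), against 73 of 1016 on the short arm (7.19%, 5.67% to 8.95%) and 9.62% on other chromosomes.

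The EHF peaks themselves had similar typical scores on both arms and a longer upper tail on the long arm. The scores of EHF replicate 1 had a lowest, median and highest value of 7, 10.0 and 30 on the long arm and of 7, 9.0 and 15 on the short arm. Those of replicate 2 were 7, 12.0 and 52 against 7, 11.0 and 27. On the other chromosomes the medians were 9.0 and 12.0 and the highest scores 45 and 693. The highest value also grows with the number of peaks. The 95th percentile of replicate 1 score per kb was 132 on the long arm, 79.5 on the short arm and 106 on other chromosomes. For replicate 2 it was 211, 148 and 208, so the long arm's tail was longer there only against the short arm. The ranges of both arms overlapped in full at the low end. Ranked by mean rank of score in both replicates, 22 of the best 100 sites of the genome lay on the long arm and 0 on the short arm, while the long arm held 10.3% and the short arm 1.82% of all 768 such sites. The 0 is thus near the short arm's share.

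The choice of the arm did not directly use overlap of EHF peaks with mark regions or recurrence in the other replicate. These shares are still built on the interval counts that the choice used. EHF replicate 2 peaks and H3K4me1 regions were 3.99 and 1.64 times as dense on the long arm, against 1.22 times for H3K27ac. The tests are therefore not independent of that choice. The shares were compared between the whole arms by 10 two-sided Fisher's exact tests with Benjamini-Hochberg adjustment. Positions within a library are neither replicates nor independent, so p-values describe these libraries and are too small as statements on cells. Of the 10 tests, 2 passed the adjusted threshold of 0.05.

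EHF peaks of the long arm lay less often in H3K27ac regions. In EHF replicate 2, 242 of 514 long arm peaks (47.1%, 42.7% to 51.5%) overlapped an H3K27ac region by at least 1 bp, against 70 of 112 on the short arm (62.5%, 52.9% to 71.5%) and 63.8% of the whole list. The difference of -15.4 percentage points passed the test, which is not independent of the choice of the arm (Fisher's exact test, p = 0.0035, adjusted p = 0.017). It did not pass by the centre of the peak or by 50% of the shorter interval, where it was -13.4 points (Fisher's exact test, adjusted p = 0.06 for both). In EHF replicate 1 the shares were 77 of 199 (38.7%, 31.9% to 45.8%) and 14 of 23 (60.9%, 38.5% to 80.3%), with 60.8% of the whole list. This difference of -22.2 points did not pass after adjustment (Fisher's exact test, p = 0.046, adjusted p = 0.15). For sites found in both replicates the shares were 48 of 79 (60.8%) and 10 of 14 (71.4%), with 77.7% of the whole set (Fisher's exact test, adjusted p = 0.69). The outer section had 38.0% of its replicate 1 peaks and 44.7% of its replicate 2 peaks in H3K27ac, and the inner section 4 of 5 and 33 of 50 (66.0%). On the other chromosomes 64.2% and 65.7% of the peaks lay in H3K27ac regions.

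In the outer section, EHF peaks of low score lay in H3K27ac less often than those of high score. Peaks with a score below the list's median made up 33 of the 119 outer peaks outside H3K27ac in replicate 1 and 149 of 250 in replicate 2. Of the EHF replicate 1 peaks there with a score below the list's median of 9.0, 1 of 34 lay in an H3K27ac region (2.94%, 0.0744% to 15.3%), against 251 of 482 on other chromosomes (52.1%, 47.5% to 56.6%) and 4 of 8 on the short arm. The lowest replicate 1 score was 8 in the outer section, 7 on the short arm and 6 on other chromosomes. All 34 outer peaks below the median thus had a score of 8, and these classes differ in make-up. At or above the median the shares were 72 of 158 (45.6%), 593 of 833 (71.2%) and 10 of 15. Of the outer EHF replicate 2 peaks with a score below its median of 12.0, 46 of 195 lay in an H3K27ac region (23.6%, 17.8% to 30.2%). The share was 58.1% (55.9% to 60.2%) on other chromosomes and 60% (46.5% to 72.4%) on the short arm. At or above the median the shares were 60.7% (54.4% to 66.7%), 72.3% and 65.4% (50.9% to 78.03%). When both arms were limited to peaks at or above the median, the difference between the whole arms was -3.66 points for replicate 2 and -21.3 points for replicate 1 (Fisher's exact tests, adjusted p = 0.93 and 0.44). The split by score was not tested below the median.

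**Figure D5:**
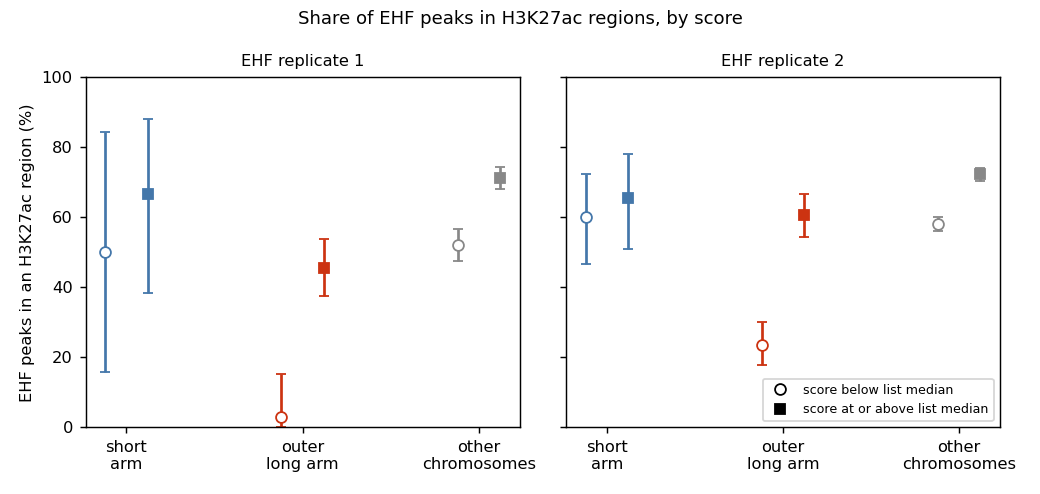
Share of EHF peaks that overlap an H3K27ac region (y axis, percent) on the short arm, in the outer section of the long arm and on the other chromosomes, for peaks with a score below the list's median (open circles) and at or above it (filled squares), with exact 95% binomial intervals and 1 panel per replicate. Outer peaks below the median are at 2.94% in replicate 1 and 23.6% in replicate 2, against 52.1% and 58.1% on other chromosomes. The lowest replicate 1 score is 8 in the outer section, 7 on the short arm and 6 on other chromosomes.

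By density, peaks in and out of H3K27ac both rose in the outer section, the latter more. EHF replicate 2 peaks in H3K27ac regions numbered 2.89 per Mb there and 0.773 per Mb on the short arm, a 3.73-fold ratio. Those in neither mark numbered 3.33 and 0.442 per Mb, a 7.53-fold ratio. For replicate 1 the ratios were 6.74-fold in H3K27ac and 15.8-fold in neither mark, where the short arm held 9 peaks. In counts, the long arm held 219 peaks of replicate 2 in H3K27ac alone, 23 in both marks, 17 in H3K4me1 alone and 255 in neither (49.6%). The short arm held 63, 7, 2 and 40 (35.7%). The long arm peaks outside H3K27ac were a median of 21173 bp from the nearest such region in replicate 2, and 176 of the 272 lay more than 10 kb away. On the short arm the median was 18881 bp, with 27 of 42 beyond 10 kb.

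Overlap of EHF peaks with H3K4me1 was low on both arms and no difference passed a test. It was 40 of 514 (7.78%) and 9 of 112 (8.04%) in EHF replicate 2, with 7.98% of the whole list, and 18 of 199 (9.05%) and 3 of 23 (13.0%) in replicate 1, with 10.1% of the whole list (by Fisher's exact test, adjusted p = 0.85 in replicate 2 and 0.69 in replicate 1). For sites in both replicates it was 7 of 79 and 2 of 14, with 9.51% of all such sites (Fisher's exact test, adjusted p = 0.69). An H3K4me1 region lay within 2000 bp of 42.4% of the replicate 2 peaks on the long arm, of 43.8% on the short arm and of 41.7% on other chromosomes. The differences between these shares were not tested.

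EHF replicate 1 peaks of the long arm were found in replicate 2 in 79 of 199 cases (39.7%, 32.8% to 46.9%), against 14 of 23 on the short arm (60.9%, 38.5% to 80.3%) and 50% of the whole list. The difference of -21.2 points did not pass (Fisher's exact test, p = 0.073, adjusted p = 0.18). For peaks with scores of 9 or more it was 78 of 163 against 13 of 15, or -38.8 points, and passed (Fisher's exact test, adjusted p = 0.027). On other chromosomes 63.7% of such peaks were found in replicate 2. Of the 34 outer peaks below that score, all with a score of 8, 1 was found in replicate 2 (2.94%). The share was 29.9% of 482 on other chromosomes, where scores went down to 6. In the other direction, 79 of 514 replicate 2 peaks (15.4%) and 14 of 112 (12.5%) were found in replicate 1, with 14.7% of the whole list (Fisher's exact test, adjusted p = 0.69). Both libraries were called against the same input, and the part of that input in the shared sites was not tested.

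H3K4me1 regions of the long arm less often overlapped H3K27ac. The share was 751 of 1883 (39.9%, 37.7% to 42.1%) on the long arm and 501 of 997 (50.3%, 47.1% to 53.4%) on the short arm, with 45.2% of the whole list, a difference of -10.4 points (Fisher's exact test, p = 1.2e-07, adjusted p = 1.2e-06). In the outer section it was 536 of 1469 (36.5%, 34.02% to 39.01%), and in the inner section 189 of 347 (54.5%, 49.1% to 59.8%). Conversely, 620 of 1432 H3K27ac regions on the long arm (43.3%) and 409 of 1016 on the short arm (40.3%) overlapped H3K4me1, with 34.5% of the whole list, and this difference did not pass (Fisher's exact test, p = 0.13, adjusted p = 0.27). By bases, 0.542 Mb of the long arm carried both marks, which was 19.4% of its H3K27ac and 38.2% of its H3K4me1 coverage. On the short arm 0.339 Mb did, or 17.8% and 46.6%. With 1 library per mark these shares have no replicate check. H3K4me1 regions were 1.64 times and H3K27ac regions 1.22 times as dense on the long arm, counts that the choice of the arm used. The test that passed here is not independent of that choice, so its p-value adds no support.

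The 10 sites of the long arm with the best ranks in both EHF replicates all lay in the outer section, which held 94.9% of the arm's 79 such sites. Their scores were 16 to 30 in EHF replicate 1 and 30 to 52 in replicate 2. Of the 10, 9 lay within H3K27ac, 2 overlapped H3K4me1 and 9 had a region of that mark within 2000 bp. Over all 75 sites of the outer section found in both replicates, these shares were 61.3%, 9.33% and 57.3%. On other chromosomes they were 79.9%, 9.48% and 50.7%. The first, chr3:170720015-170720165, had scores of 28 and 52 inside an H3K27ac region with a score per kb of 114. The second, chr3:185255287-185255456, scored 30 and 49, with 94.8 per kb in its H3K27ac region. Another, chr3:158489792-158489957, scored 16 and 49 and lay in a 9147 bp region with 127 per kb. The last of the 10, chr3:190284290-190284561, scored 16 and 43 and lay in a 12471 bp region with 126 per kb. The site at chr3:184089422-184089572, with scores of 22 and 40, was the one outside H3K27ac, 7568 bp from the nearest region, and its nearest H3K4me1 region was 6700 bp away. The sites at chr3:155455634-155455820 (29 and 32) and chr3:161033782-161033942 (21 and 36) had H3K4me1 regions 198 bp and 721 bp from their centres. Their H3K27ac regions had 52.7 and 119.5 per kb. The site at chr3:185069723-185069884 scored 28 and 30 and overlapped both marks, with 81.9 per kb in its H3K27ac region. The site at chr3:177246402-177246555 scored 20 and 45 and also overlapped both marks. Its H3K27ac region had 41.1 per kb, the lowest of the 9.

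The 5 best sites of the short arm scored 11 to 15 in EHF replicate 1 and 14 to 27 in replicate 2, below every one of the 10 long arm sites in both lists. The first was chr3:42694317-42694467, with scores of 12 and 27. It overlapped H3K4me1 and an H3K27ac region with 17.4 per kb, and it was in place 140 among the 768 sites of the genome. The one at chr3:65937901-65938150 scored 12 and 19 and lay in a 11790 bp H3K27ac region with 63.2 per kb, one of the 5 longest of that arm. Of the 5 sites, 3 lay in H3K27ac, against 10 of all 14 such sites of the arm (71.4%). The site at chr3:45730491-45730673 lay 134 bp from such a region by its centre, and the site at chr3:80745632-80745791 lay 36182 bp away.

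The longest H3K27ac region of the long arm was in the inner section, at chr3:101565704-101589379. It was 23676 bp wide, had a score per kb of 43.5 and held 2 EHF replicate 2 peaks and 3 H3K4me1 regions. The next 4 lay in the outer section and had 83.5 to 147 per kb. They were chr3:185043161-185062244, with 3 EHF replicate 2 peaks and 6 H3K4me1 regions, chr3:185261475-185277580, chr3:160383269-160398824 and chr3:149184315-149198473. The last of these had a score of 2080 and held no EHF peak of either replicate. The region at chr3:160383269-160398824 had the arm's highest score, 2185, and 1 peak of each replicate that did not overlap each other. The 5 longest of the short arm were 11790 to 15628 bp wide with 39.6 to 97.2 per kb, led by chr3:25465152-25480779 with no EHF peak and no H3K4me1 region. The longest H3K4me1 region of the long arm, chr3:134070890-134077632, was 6743 bp wide with 38.4 per kb and held no EHF peak. The 3 longest of the short arm were 3193 to 3361 bp wide with 21.4 to 21.6 per kb. Genes at these positions were not analysed here.

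A stretch of this kind was not confined to chromosome 3. Of 490 bins of 5 Mb with at least 20 H3K27ac regions on other chromosomes, 30 (6.12%) reached both score thresholds, on 7 chromosomes. The longest runs were 45 Mb on chromosome 7, 30 Mb on chromosome 20 and 25 Mb on chromosome 8, against 70 Mb on the long arm of chromosome 3. Per 100 H3K27ac regions, the run on chromosome 7 had 14.6 EHF replicate 1 and 27.8 replicate 2 peaks, that on chromosome 20 had 15.9 and 47.2 and that on chromosome 8 had 10.0 and 23.4. A run of 15 Mb on chromosome 17 had 4.90 and 55.9 (48.3 to 64.4 for replicate 2). Its bin from 35000001 alone held 106 of its 194 replicate 2 peaks, or 95.5 per 100 regions. The other bins of that run had 38.1 and 36.4. The outer section, at 46.2 (42.0 to 50.6), was therefore not the highest of these runs for replicate 2, although its interval overlapped those of the runs above it. Only the longest run of a chromosome is given, and shorter ones could be richer in EHF. On chromosome 8, the adjacent bins from 30000001 and 35000001 also reached both thresholds. They had 17 and 10 replicate 1 peaks beside 59 and 54 H3K27ac regions, and 54.2 and 53.7 replicate 2 peaks per 100 such regions. The outer section as a whole had 192 replicate 1 peaks beside 979 regions, which is fewer per region than the first of these bins and slightly more than the second. For replicate 2 both bins were above its 46.2. The long arm's median score per kb was above that of each of the 22 other chromosomes, taken whole, for both marks. By sum of score over length, chromosome 17 exceeded it for H3K27ac (72.2 against 60.7 per kb). The bin of chromosome 17 from 35000001 had 301 per kb, and the chromosome's median region had 30.3 against 37.6 on the long arm.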

How the data were processed

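Of the 6 libraries, 4 were used through their interval lists, and tags of the 2 inputs were not used. The submitters' processing notes name hg19 as the build, and the tools Bowtie (version 1.0.0) and HOMER (version 1.2). Per the file headers, the authors called each library separately against an input with HOMER findPeaks (factor style for EHF, histone style with stitched 500 bp windows for marks), at a false discovery rate of 0.01 and 4-fold over input. EHF peaks were also required to exceed the surrounding 10 kb 4-fold. The deposited score of each interval is its tag count scaled by the authors to 10000000 tags, in whole numbers. The filters over input and over the surroundings depend on the position, so the lowest score that could be called need not be the same everywhere. Interval numbers and scores both rest on tag counts and are not independent measures.

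Starts were made 1-based. Arm lengths run from 1 to 90500000 and from 93500000 to the last interval end seen (197687235), 90.5 and 104 Mb. Bins of 5 Mb take intervals by centre, and score per kb is the sum of score over the sum of length. Poisson and Clopper-Pearson limits and Fisher's exact tests used scipy 1.17.1 with Python 3.11.15, numpy 2.4.6 and pandas 2.3.3. Overlap and run finding were tested on simulated data. Named sites are the 10 (long arm) and 5 (short arm) replicated EHF sites with the best mean score rank, the 5 longest H3K27ac and 3 longest H3K4me1 regions per arm, and the 3 highest and lowest bins. The arms, rules and tests were chosen with earlier results of these data known. Alternatives covered the denominator, merging, score, overlap rule, bin size and left-out bins or replicates. Sequences and gene names need hg19 and were not used here.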

Additional observations from a re-analysis of the deposited data

How the results depend on the processing

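Of 66 alternative values for 18 results, 45 kept their direction and their side of the threshold or stayed within the counting interval or replicate spread. Limiting the long arm to its inner section, an alternative chosen after seeing the data, turned the ratio to the short arm of EHF replicate 1 peaks per 100 H3K27ac regions from 6.14 to 0.563 and that of sites in both replicates from 4.004 to 0.555. It moved the ratio of replicate 2 from 3.26 to 1.16, the H3K27ac score ratio from 1.79 to 1.05 and the H3K4me1 score ratio from 1.44 to 1.01. Per H3K4me1 region, the replicate 2 ratio was 2.43. The mean ratio of both replicates was 4.70 ± 2.04 (SD, n = 2), and leaving out each replicate gave 3.26 to 6.14. The H3K27ac score ratio was 1.54 by medians, 1.58 in middle widths, 1.73 without its highest bin and 1.55 in regions with no EHF peak. For H3K4me1 it was 1.33 by medians and 1.35 in middle widths. With EHF scores at or above the list median, the difference in recurrence of replicate 1 peaks was -38.8 points and passed (Fisher's exact test, adjusted p = 0.027). That of replicate 2 turned from 2.87 to -1.01 points (p = 0.95), its difference in H3K27ac fell to -3.66 points (p = 0.93) and that in H3K4me1 turned from -0.254 to 0.385 points (p = 1), all by Fisher's exact test and adjusted. Its difference in H3K27ac was -13.4 points by centre and by 50% of the shorter interval, no longer passing. Sites in both replicates need both lists, so leaving out a replicate only repeats the differences of the other replicate's full list. These were -22.2 (replicate 1) and -15.4 points (replicate 2, passing) in H3K27ac, and -3.998 and -0.254 points in H3K4me1. They count among the 66 alternatives but say nothing about the sites in both replicates. Bins of 2 Mb shortened the longest run to 30 Mb for H3K4me1 and 38.0 Mb for H3K27ac, because single bins fell below the threshold: 32 of 34 and 33 of 34 bins of the outer section still reached it. Beyond these constructions the cause of a change was not tested. With 23 EHF replicate 1 peaks on the short arm, only wide differences could pass a test there. No paired analysis was possible because the arms are positions within the same libraries so that no replicate groups were set against each other.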
